A study of Mus musculus with 6 samples.

Results

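The 9 genes examined here carry, bind, convert or read vitamin A and its acid form: *Rbp4*, *Stra6*, *Crabp1*, *Crabp2*, *Rdh10*, *Dhrs3*, *Cyp26b1*, *Rarb* and *Rarg*. They were found by symbol in a deposited table of 37753 genes with expression values, and all 9 had 1 entry of their own. RNA was sequenced from 3 preparations of primary mouse mammary epithelial cells (MEC) and from 3 mammary tumor cell lines (MEKO), with 1 library for each preparation or line. The mice were of the C57/Bl6J strain. MEC came from virgin females of genotype WAPCre+ aged 10 to 12 weeks, with 3 to 5 females pooled per preparation, and were cultured on collagen I with 5% fetal calf serum, EGF and insulin. MEKO lines came from tumors of Mapk8KO Mapk9KO Cre+ mice. These mice lack *Mapk8*, which encodes JNK1, and *Mapk9*, which encodes JNK2, wherever the *Wap* promoter has driven Cre. The age of these mice is not in the labels, but the study reports a median age for palpable tumors in such mice far above that of the MEC donors. *Wap* is a milk protein gene, so this Cre acts in secretory luminal cells. Each line is a single culture, kept on collagen I for 2 passages and afterwards on uncoated plastic, and the study's methods give a growth medium with more serum and no added EGF or insulin. Genotype, tumor origin, parity, donor age, medium and time in culture change together between the groups, so their parts cannot be told apart. The study's mouse records class the tumors of mouse 199 as adenosquamous, of mouse 233 as both adenosquamous and adenocarcinoma, and of mouse 336 as adenocarcinoma, and lines were paired with mice by number alone.

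Vitamin A travels in blood as retinol on RBP4, and STRA6 is a membrane receptor that lets retinol pass from RBP4 into cells. Inside the cell RDH10 oxidizes retinol to retinal and DHRS3 reduces retinal back to retinol, and retinal dehydrogenases of the ALDH1A family turn retinal into retinoic acid. CRABP1 and CRABP2 bind retinoic acid in the cytoplasm, CYP26 enzymes break it down, and the receptors RARα, RARβ and RARγ bind it in the nucleus with RXR partners and switch genes on or off. *Rarb*, *Dhrs3*, *Stra6* and the CYP26 genes are themselves known to respond to retinoic acid, and retinoids are known for their effects on the differentiation of squamous and glandular epithelium.

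Values are FPKM, fragment counts scaled for gene length and for library size, which let levels be compared between genes per unit of length. Expression was tested with limma on log2(FPKM + 1) over the 12461 entries with a mean of at least 1 FPKM. A gene was called with an adjusted p under 0.05 and a log2 fold change beyond 0.75 in either direction. *Mapk8* was at 19.2 to 25.1 FPKM in MEC and at 1.37 to 5.93 FPKM in MEKO, and *Mapk9* was at 21.5 to 24.4 and 3.07 to 7.62 FPKM, so both targeted genes were lower in every line. The summed FPKM of a library lay between 557991 and 638365, the number of reads behind it is unknown, and line 199 correlated with the MEC libraries at r = 0.804 to 0.855 across genes, which are not independent replicates, against 0.793 to 0.817 for lines 233 and 336. Whether samples of a group share more than their label is not stated, so p-values cover only the spread between these libraries.

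Among the 9 genes, *Rarb* was the one that passed the test, and it fell in all 3 MEKO lines to between 1.02% and 9.25% of the MEC mean. *Rarb* reached the level for testing only through the MEC libraries, since it was under 1 FPKM in every line. *Dhrs3* read lower in every line than in any MEC library, but unequally, from 6.17% of the MEC mean in line 199 to 55.6% in line 336. *Stra6* read 90.1 times the MEC mean in line 233 and 2.79 and 2.70 times in lines 199 and 336. *Crabp2* and *Crabp1* divided the lines, with line 199 above the MEC range and the other two below it. *Rdh10* and *Rarg* stayed within 1.52 times of the MEC mean in either direction in each line. Of the 8 genes with a high enough level to be tested, 1 was called lower and 0 were called higher by limma. Over all tested genes 7.26% were called lower and 2.64% higher, and the count of 1 in 8 is to be read against these shares. At an unadjusted limma p under 0.05 there were 3 lower genes and 0 higher ones, against 15.7% and 12.4% of all tested genes.

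**Figure D1:**
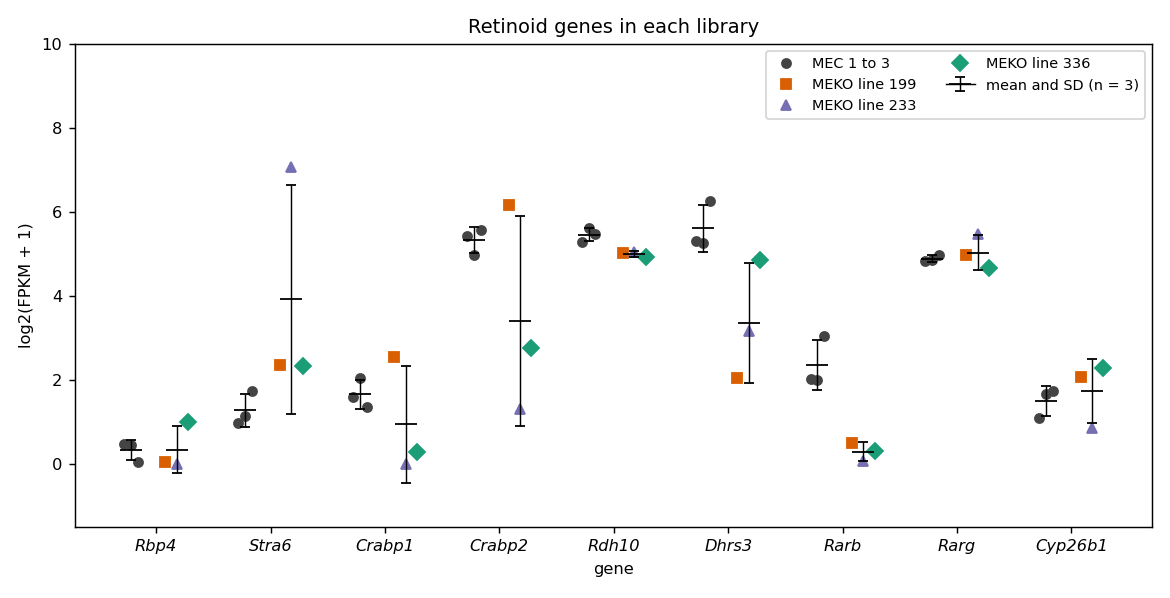
Expression of each of the 9 genes on the log2(FPKM + 1) scale (vertical axis), with MEC libraries as circles, the 3 MEKO lines as colored symbols, and bars for the mean and SD (n = 3) of each group. *Rarb* is low in all 3 lines, *Stra6* stands out in line 233 at 133.6 FPKM, and *Crabp2* ranges from 1.46 to 71.3 FPKM over the lines.

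In MEC the genes fell into an abundant and a scarce group. *Dhrs3* had the highest level, at 50.5 ± 21.5 FPKM (SD, n = 3), followed by *Rdh10* at 43.2 ± 4.87 and *Crabp2* at 39.7 ± 8.21 FPKM, 3 neighbors that do not differ beyond their spread. *Rarg* followed at 28.6 ± 1.69 FPKM. *Rarb* at 4.43 ± 2.46, *Crabp1* at 2.21 ± 0.795, *Cyp26b1* at 1.89 ± 0.666 and *Stra6* at 1.48 ± 0.718 FPKM were scarce, and the last 3 overlap in their spread. *Rbp4* came last at 0.265 ± 0.199 FPKM. The order differed in each line. The highest of the 9 was *Crabp2* in line 199, *Stra6* in line 233 and *Rdh10* in line 336.

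*Rbp4*, which encodes the blood carrier of retinol, lies on chromosome 19 of GRCm38 from 38116629 to 38125281. It was at 0.396, 0.363 and 0.0360 FPKM in MEC 1 to 3, at 0.0257 and 0.980 FPKM in lines 199 and 336, and is listed at 0 in line 233. The groups overlapped, and *Rbp4* was not tested with the others because its mean was under 1 FPKM. Adipocytes are a known source of RBP4, and the summed FPKM of 6 adipocyte markers was 1.76 to 12.6 in MEC and 1.76 to 7.13 in MEKO. Of these, *Plin1* is listed at 0 in every library and *Adipoq* did not exceed 0.155 FPKM, while *Fabp4* reached 11.7 FPKM in MEC 2 and *Pparg* was at 7.04 and 3.74 FPKM in lines 233 and 336. The part of these markers in the *Rbp4* values was not tested. Without the expression filter its log2 fold change was 0.01 (standard error, SE, 0.30, adjusted p = 0.981 by limma).

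*Stra6* (chromosome 9, 58063788 to 58153996) was at 0.961, 1.19 and 2.30 FPKM in MEC 1 to 3. In the MEKO lines it was at 4.14 FPKM in line 199, 133.6 FPKM in line 233 and 4.01 FPKM in line 336. Every line lay above every MEC library, and line 233 stood far above the other lines. The log2 fold change was 2.64 (SE 1.27, 95% interval -0.41 to 5.70), and *Stra6* was not called (limma adjusted p = 0.23). Without line 233 the log2 fold change was 1.07, so most of the mean difference rests on that line. With limma's sample weights, which give less weight to libraries that vary more, it was called higher at 3.60 (limma adjusted p = 0.0436). These weights gave 600 higher calls over all genes, against 329 without them.

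*Crabp1* (chromosome 9, 54764748 to 54773110) and *Crabp2* (chromosome 3, 87948666 to 87953376) encode the small cytoplasmic proteins that hold retinoic acid, of which CRABP2 is known to deliver it to the receptors. *Crabp2* was at 41.7, 30.6 and 46.7 FPKM in MEC 1 to 3. It was at 71.3 FPKM in line 199, 1.46 FPKM in line 233 and 5.78 FPKM in line 336. The groups overlapped, since line 199 lay above all MEC libraries and the other lines below them. *Crabp1* followed the same order at a lower level, with 2.01, 3.09 and 1.54 FPKM in MEC, 4.85 FPKM in line 199 and 0.206 FPKM in line 336, and it is listed at 0 in line 233. In the libraries with both genes above 0, *Crabp2* was between 9.91 and 30.3 times as high as *Crabp1*. Neither gene was called, with log2 fold changes of -1.91 for *Crabp2* (SE 1.16, adjusted p = 0.324 by limma) and -0.72 for *Crabp1* (SE 0.69, adjusted p = 0.527 by limma). Without line 199 both were called lower, at a log2 fold change of -3.30 for *Crabp2* (limma adjusted p = 0.00938) and -1.52 for *Crabp1* (limma adjusted p = 0.0256). Calls over all genes rose too, with 1398 of 12434 lower without line 199 against 905 of 12461 with it.

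*Crabp2* had the widest range over the lines on the log2(FPKM + 1) scale, 4.88. The tested genes whose pattern was most like it were *Col16a1*, which encodes a collagen, *Epb4.1l3* and *Mxra7*. Likeness was measured over the 6 libraries as the largest difference between both genes after centering on the MEC mean, and it was 0.48, 0.48 and 0.58 log2 units. *Col16a1* was at 14.2 to 15.0 FPKM in MEC, 19.6 FPKM in line 199, 0.00677 FPKM in line 233 and 0.906 FPKM in line 336.

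Sums of basal, fibroblast and squamous markers were, like *Crabp2* and *Crabp1*, higher in line 199 than in lines 233 and 336. The basal sum of line 199 lay within the MEC range, while *Crabp2* and *Crabp1* lay above it there. The summed FPKM of 6 basal and myoepithelial markers was 1282 to 2242 in MEC, 1865 in line 199, 9.92 in line 233 and 45.1 in line 336. Among them *Krt5* was at 608 FPKM in line 199 against 1.33 and 15.3 FPKM in the other lines, while *Myh11* and *Oxtr* were at or under 0.0812 FPKM in all 3 lines. The summed FPKM of 7 fibroblast markers was 98.8 to 190.5 in MEC, 1100 in line 199, and 2.40 and 4.22 in lines 233 and 336. In line 199 *Col1a1* reached 599.7 FPKM while *Dcn* and *Lum* were at 0.311 and 0.0264 FPKM. The 6 squamous markers summed to 242 FPKM in line 199 and to 3.74 and 14.8 FPKM in the other lines, against 10.1 to 52.6 FPKM in MEC. *Krt6a* alone was at 223 FPKM in line 199, and *Sprr1b* was at 16.5 FPKM there. *Ivl* had the same order over the lines but lay below MEC in each, and *Lor* had another order. *Ivl* was called lower, with 0.708 FPKM in line 199 against 3.37 to 12.8 FPKM in MEC (adjusted p = 0.0229 by limma), *Lor* was above MEC in every line and highest in line 233 at 1.71 FPKM, and *Krt1* was at or under 0.0221 FPKM in every library. The part of these markers in the *Crabp1* and *Crabp2* values was not tested. In RNA from whole cultures, fewer cells of a type and less RNA per cell cannot be told apart.

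*Rdh10* (chromosome 1, 16105774 to 16133734), which encodes the dehydrogenase for the first oxidation step, was at 38.2, 47.9 and 43.6 FPKM in MEC 1 to 3 and at 31.5, 31.9 and 29.2 FPKM in lines 199, 233 and 336. The lines were close to each other and each lay below every MEC library. Its log2 fold change was -0.47 (SE 0.14, 95% interval -0.81 to -0.12). This was inside the fold threshold, and the limma adjusted p was 0.0952.

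*Dhrs3* (chromosome 4, 144892827 to 144928209) encodes the reductase that acts against RDH10. It was at 38.8, 37.3 and 75.3 FPKM in MEC 1 to 3, and at 3.11, 7.90 and 28.1 FPKM in lines 199, 233 and 336. The groups did not overlap, but line 336 lay close under MEC. On the log2 scale the difference was -2.26 (SE 0.71, 95% interval -3.96 to -0.55), which was not called (limma adjusted p = 0.0991). Without line 336 it was called lower, at -3.01 (limma adjusted p = 0.0264), and it was called with sample weights at -1.79. Over all genes 708 were called lower without line 336 and 1378 with sample weights, against 905 with neither change. Because RDH10 and DHRS3 work in opposite directions, their levels were also divided, a ratio chosen after the values were seen. *Dhrs3* per *Rdh10* was 1.02, 0.778 and 1.73 in MEC, 0.0988 and 0.248 in lines 199 and 233, and 0.961 in line 336, which lay within the MEC range.

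The promoters of *Dhrs3* and *Stra6* are shown because they had the largest log2 fold changes of the tested genes, in opposite directions. Both are the 250 bases before a RefSeq start on the plus strand of GRCm38.p6, at chr4:144892577-144892826 and chr9:58128838-58129087. Each gene has other RefSeq windows, and the one with the lowest coordinate is shown. The *Stra6* stretch lies inside the GENCODE gene, which begins at 58063788. Capitals would mark a retinoic acid receptor half-site (AGGTCA or its forms AGTTCA and GGGTCA and also GGTTCA, on either strand) or an AP1 site (TGANTCA), and neither stretch holds one.
Dhrs3: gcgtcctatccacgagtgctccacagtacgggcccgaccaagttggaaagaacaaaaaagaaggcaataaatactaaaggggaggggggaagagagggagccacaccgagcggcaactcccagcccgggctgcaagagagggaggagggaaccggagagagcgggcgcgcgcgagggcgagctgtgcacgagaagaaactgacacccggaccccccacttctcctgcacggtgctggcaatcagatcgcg
Stra6: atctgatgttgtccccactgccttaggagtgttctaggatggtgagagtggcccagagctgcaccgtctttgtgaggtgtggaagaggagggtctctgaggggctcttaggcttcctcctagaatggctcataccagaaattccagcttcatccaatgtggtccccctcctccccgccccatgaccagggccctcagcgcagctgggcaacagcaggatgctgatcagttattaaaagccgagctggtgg

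The *Dhrs3* stretch had 61.6% G or C and 19 CpG dinucleotides, and the *Stra6* stretch had 56.4% and 4. The median over all 32851 RefSeq windows was 52.4% and 6.

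*Cyp26b1* (chromosome 6, 84571414 to 84593908), which encodes an enzyme that degrades retinoic acid, was at 1.13, 2.19 and 2.35 FPKM in MEC 1 to 3 and at 3.22, 0.817 and 3.84 FPKM in lines 199, 233 and 336. Line 233 lay below the MEC range and the other lines above it. Its fold change on the log2 scale was 0.24 (SE 0.43, 95% interval -0.79 to 1.27, adjusted p = 0.749 by limma), and without line 336 its sign turned.

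*Rarb* (chromosome 14, 16430839 to 16819156, minus strand) encodes RARβ. It was at 3.03, 2.98 and 7.27 FPKM in MEC 1 to 3. The MEKO lines were at 0.410 FPKM in line 199, 0.0452 FPKM in line 233 and 0.244 FPKM in line 336. The lowest MEC library was far above the highest line. Its log2 fold change was -2.06 (SE 0.35, 95% interval -2.91 to -1.21), and the limma adjusted p was 0.0193. On the scale of log2(FPKM + 1) this understates the ratio of the means, which are 4.43 ± 2.46 and 0.233 ± 0.182 FPKM (SD, n = 3). An exact permutation test (two-sided) gave p = 0.1, which is the lowest value open to 3 against 3 libraries. Every line was under the 1 FPKM that the mean had to reach, so *Rarb* was tested only because of its MEC level. Without the expression filter it stayed called (limma adjusted p = 0.0312). *Rarb* was not called without MEC 1 or without MEC 2, at a limma adjusted p of 0.0718 and 0.0645. It stayed called without MEC 3, at 0.0402. Calls over all genes fell from 1234 to 259, 301 and 477 without MEC 1, 2 and 3.

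The promoter of *Rarb* is shown because it is the classic example of direct control by retinoic acid receptors, through a repeat of the half-site with a spacer of 5 bases. The stretch lies on the minus strand of GRCm38.p6 at chr14:16575506-16575535, with both half-sites in capitals. The stretch is part of the 250 bases before a RefSeq start, all of which are exonic sequence of *Rarb* in GENCODE. The GENCODE gene starts 243680 bases upstream of that RefSeq start.
Rarb: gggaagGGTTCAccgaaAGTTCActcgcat

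The repeat ran from 53 to 37 bases before the RefSeq start. Direct repeats of any of the 4 half-sites with a spacer of 5 bases, on either strand, were found in 0.0974% of the 32851 RefSeq windows, each from 250 bases before a start to a little after it. Of the 14 windows for 7 of the 9 genes, it was in 1, and repeats with a spacer of 1 or 2 bases were in 0. Single half-sites are common, in 43.7% of all windows, and were in 4 of the 14, those of *Rarb*, *Rarg*, *Rbp4* and *Stra6*, the last after the start in another *Stra6* window than the one shown. The AP1 site was in 7.81% of all windows and in 1 of the 14, for *Rbp4*. A match of letters is not evidence that a factor binds there, and no binding was measured.

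*Rarb* shares 34.1% of its exonic bases with *Top2b*, a topoisomerase gene on the opposite strand, and whether reads were counted by strand is not given in the sources used here. *Top2b* was at 28.5 to 44.4 FPKM across the 6 libraries, with a log2 fold change of 0.03 (SE 0.21, adjusted p = 0.954 by limma). *Rarb* was at 0.0452 to 7.27 FPKM. Both genes were highest in MEC 3 and lowest in MEC 2 among MEC, and highest in line 199 and lowest in line 233 among the lines. The part of *Top2b* reads in the *Rarb* values was not tested. No other of the 9 genes shared exonic bases with another annotated gene.

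*Rarg* (chromosome 15, 102234938 to 102257517), which encodes RARγ, was at 27.4, 27.9 and 30.5 FPKM in MEC 1 to 3 and at 30.4, 43.3 and 24.2 FPKM in lines 199, 233 and 336. Line 199 lay within the MEC range, line 233 above it and line 336 below it. The log2 fold change was 0.15 (SE 0.23, 95% interval -0.40 to 0.69, adjusted p = 0.703 by limma), and its sign turned without line 233.

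The receptors were also compared as a family, a view chosen after the values were seen. The summed FPKM of *Rara*, *Rarb* and *Rarg* was 44.4 to 53.8 in MEC and 41.7 to 54.5 in MEKO, so the groups overlapped. *Rarb* made up 6.55% to 13.5% of the sum in MEC, against 0.982% in line 199, 0.0830% in line 233 and 0.534% in line 336. *Rarg* was the largest share in every library, at 56.7% to 61.7% in MEC, 72.9% and 79.6% in lines 199 and 233, and 53.0% in line 336. *Rara* had its largest share in line 336, 46.5%, against 29.8% to 32.3% in MEC.

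**Figure D2:**
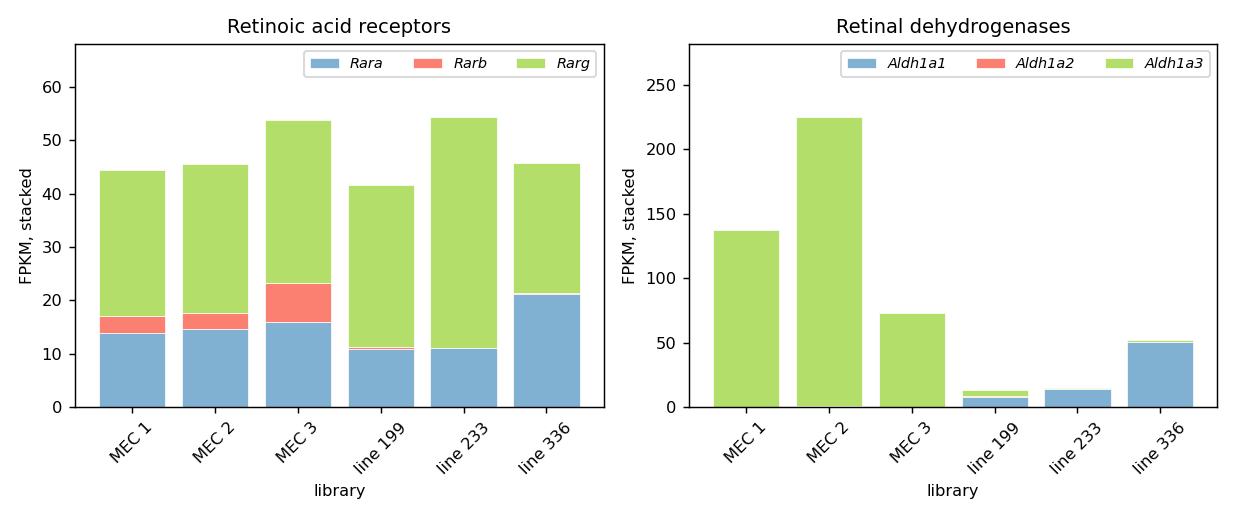
FPKM of the 3 retinoic acid receptor genes (left) and of 3 retinal dehydrogenase genes (right), stacked in each of the 6 libraries. The receptor sum is similar in both groups while *Rarb* is under 1% of it in the lines, and *Aldh1a3* makes up at least 99.6% of the dehydrogenase sum in MEC and *Aldh1a1* 61.7% to 97.8% of it in MEKO.

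The other genes of the pathway were taken from a list of 48 table entries for transport and storage, retinol and retinal enzymes, retinoic acid enzymes, and receptors with their cofactors. Of the 26 that were tested, 1 was called higher and 3 were called lower, with a median log2 fold change of -0.11 against 0.01 over all tested genes. Over all genes 9.90% were called in either direction. The higher gene was *Aldh1a1* and the lower ones were *Aldh1a3*, *Dhrs4* and *Nrip1*.

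Of the genes for making retinoic acid, *Aldh1a3* and *Aldh1a1* encode retinal dehydrogenases. *Aldh1a3* fell from 137, 224 and 72.8 FPKM in MEC 1 to 3 to 4.92, 0.309 and 1.13 FPKM in lines 199, 233 and 336, a log2 fold change of -5.70 (SE 0.64, adjusted p = 0.00487 by limma). *Aldh1a1* rose from 0.185, 0.493 and 0.121 FPKM to 8.17, 14.4 and 50.6 FPKM, a log2 fold change of 3.95 (SE 0.61, adjusted p = 0.0148 by limma). The 2 genes therefore changed places as the main retinal dehydrogenase transcript in every line. *Aldh1a1* reached the level for testing only through the lines, and without the expression filter it stayed called (limma adjusted p = 0.0292). The call of *Aldh1a1*, unlike that of *Aldh1a3*, was lost without any 1 MEC library, at log2 fold changes of 3.86 to 4.07. Calls over all genes fell from 1234 to 259, 301 and 477 in these refits. Their sum with *Aldh1a2* was 72.9 to 225 FPKM in MEC and 13.3 to 51.8 FPKM in MEKO.

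*Dhrs4*, which encodes a reductase that accepts retinal among other substrates, fell from 18.1 ± 0.650 to 6.90 ± 2.37 FPKM (SD, n = 3), a log2 fold change of -1.32 (limma adjusted p = 0.0222). Without any 1 MEC library this call was lost, as calls over all genes also fell, while its log2 fold change stayed between -1.34 and -1.29. *Dhrs4* was the 1 of 8 tested retinol and retinal enzymes that was called, against 9.90% of all tested genes. *Adh5*, the most abundant, was at 48.5 ± 5.35 FPKM in MEC and 49.3 ± 4.23 FPKM in MEKO. The entry that holds *Rdh5* also joins *Bloc1s1*, so its level cannot be given to either gene. Of the transport and storage genes 5 were tested and 0 were called by limma. At an unadjusted limma p under 0.05, 1 was lower and 0 were higher, against 15.7% and 12.4% of all tested genes. *Fabp5*, the most abundant, encodes a fatty acid binding protein that also carries retinoic acid, and was at 99.6 ± 36.3 FPKM in MEC and 82.4 ± 10.6 FPKM in MEKO.

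*Lrat*, which encodes the enzyme that stores retinol as esters, did not exceed 0.0267 FPKM, and *Ttr*, the partner of RBP4 in blood, is listed at 0 in all 6 libraries.

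Among the receptors and cofactors *Nrip1*, a corepressor of nuclear receptors, fell from 22.9 ± 0.974 to 6.46 ± 1.55 FPKM (SD, n = 3), a log2 fold change of -1.70 (SE 0.19, adjusted p = 0.00498 by limma). It was the 1 of 10 tested genes that was called, against 9.90% of all tested genes. *Rara* was at 14.9 ± 1.04 and 14.4 ± 5.90 FPKM, with a limma adjusted p of 0.819. The RXR partner genes *Rxra* and *Rxrb* were at like levels in MEC, 14.3 ± 4.37 and 13.2 ± 1.29 FPKM, and at 26.6 ± 10.5 and 14.4 ± 2.57 FPKM in MEKO, and neither was called.

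**Figure D3:**
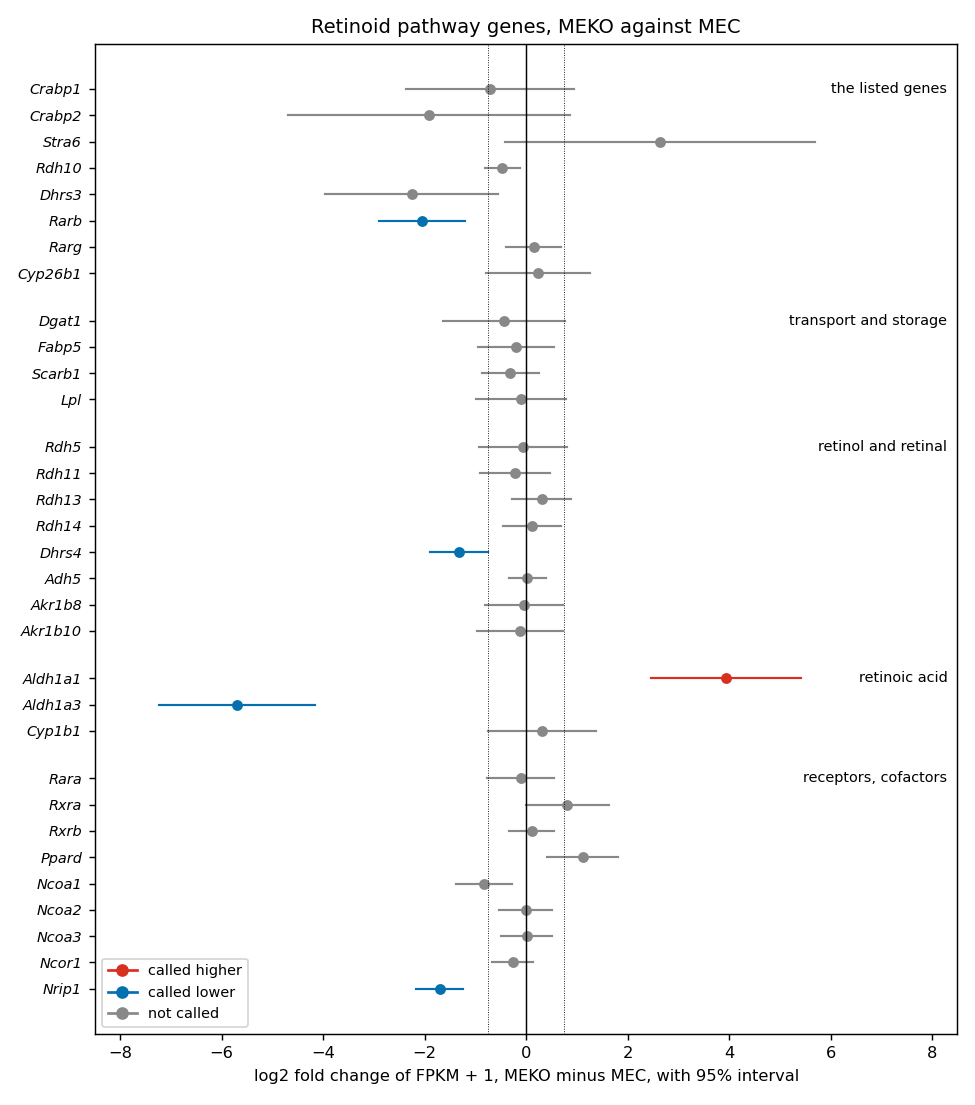
Log2 fold change of FPKM + 1 with its 95% interval from limma for the 8 tested genes and the tested entries of the pathway list that are reported here, grouped by role, with dotted lines at the fold threshold of 0.75. *Rarb*, *Aldh1a3*, *Dhrs4* and *Nrip1* were called lower and *Aldh1a1* higher, and the intervals of *Stra6* and *Crabp2* reach across 0.

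Genes known to respond to retinoic acid did not share a direction. Of 18 on the list, 12 were tested, 3 were called higher and 2 lower, against 2.64% and 7.26% of all tested genes, and the median log2 fold change was -0.12. *Nr2f2*, an orphan nuclear receptor gene, rose from 5.95 ± 1.04 to 26.8 ± 8.56 FPKM (log2 fold change 1.96, limma adjusted p = 0.0114), *Meis2*, a homeobox gene, from 1.02 ± 0.369 to 6.11 ± 3.33 FPKM (1.73, limma adjusted p = 0.038), and *Rai14* from 19.3 ± 2.04 to 49.2 ± 14.4 FPKM (1.27, limma adjusted p = 0.0237). *Tgif1*, which encodes a homeobox repressor that binds RXR sites, fell from 179 ± 4.78 to 82.5 ± 15.1 FPKM (-1.12, limma adjusted p = 0.0138). *Foxa1*, which encodes a factor of luminal identity, fell from 15.6 ± 6.76 to 1.95 ± 1.26 FPKM (-2.49, limma adjusted p = 0.0198). *Tgm2*, a transglutaminase gene, was at 86.4, 105 and 165 FPKM in MEC 1 to 3 and at 42.5, 12.7 and 157 FPKM in lines 199, 233 and 336, and was not called. *Meis2*, *Rai14* and *Tgif1* lost their call without any 1 MEC library, and so did *Foxa1* without MEC 1 or 2 and *Nr2f2* without MEC 1 or 3. *Meis2*, *Rai14* and *Foxa1* also lost it without line 233. *Meis2* lost it as well without line 336 or without the expression filter, at a limma adjusted p of 0.0596 and 0.0712. Each of these refits also called fewer of all genes than the 1234 called with every library and the filter.

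Luminal markers were lower in the lines. Of 6 luminal markers all 6 were tested and 5 were called lower, against 7.26% of all tested genes, and their summed FPKM was 5352 to 8902 in MEC and 789 to 1962 in MEKO. *Krt8* and *Krt18*, which define the simple epithelium, were at 1844 to 3593 FPKM in MEC and at 197 to 1181 FPKM in the lines. *Krt19* was at 356 to 1057 FPKM in MEC and at 7.93 to 26.8 FPKM in the lines. *Elf5*, a regulator of secretory luminal cells, was at 31.5 to 44.3 FPKM in MEC and at or under 0.461 FPKM in the lines. The summed FPKM of 4 endothelial markers was 1.67 to 13.9 in MEC and at or under 0.430 in MEKO, and that of 4 leukocyte markers was 3.86 to 7.26 in MEC and 0.779 to 23.5 in MEKO, where *Ptprc* was at or under 0.0146 FPKM and *Cd68* was at 23.5 FPKM in line 336. The part of these cell types in the values of *Rarb*, *Dhrs3* and the dehydrogenases was not tested.

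The MEC libraries also varied among themselves, a pattern noticed after the values were seen and given without a test. MEC 3 was over 1.5 times both other MEC libraries for 3 of the 8 tested genes, *Dhrs3* (1.94 times the higher of the others), *Rarb* (2.40 times) and *Stra6* (1.94 times), against 8.69% of all tested genes. *Rarg*, *Crabp2* and *Rdh10* in MEC 3 were 1.10, 1.12 and 0.911 times the higher of the others. MEC 3 also differed in marker sums. Its luminal, basal, squamous and endothelial sums, at 5352, 1282, 10.1 and 1.67 FPKM, were the lowest of the MEC libraries. Its leukocyte sum was the highest, at 7.26 FPKM. The part of these markers in the values of MEC 3 was not tested.

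Each line was also set against the MEC range, counting a gene where the line lay more than 1 unit of log2(FPKM + 1) beyond the nearest MEC library. In line 199 this held for 2 of the 8 tested genes, *Dhrs3* and *Rarb*, both below MEC, against 9.22% of all tested genes below and 4.99% above. In line 233 it held for *Crabp1*, *Crabp2*, *Dhrs3* and *Rarb* below MEC and for *Stra6* above, against 11.0% and 4.62% of all genes. In line 336 it held for *Crabp1*, *Crabp2* and *Rarb* below MEC, against 11.5%, and for 0 genes above, against 4.70%. *Rarb* alone was in this class in all 3 lines. Groups lay apart, with no overlap, for 4 of the 8 genes, *Rarb*, *Dhrs3* and *Rdh10* below and *Stra6* above, against 37.2% of all tested genes.

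Each gene was set beside the 5 nearest tested genes on either side, with each line given as the difference of log2(FPKM + 1) from the MEC mean. Around *Rarb* the median of the 10 neighbors was 0.10, 0.16 and 0.09 in lines 199, 233 and 336, and none was below -0.69, against -1.86, -2.29 and -2.04 for *Rarb* itself. Around *Stra6* in line 233 the median was -0.09 and the highest neighbor was at 3.35, against 5.80 for *Stra6*, while in line 199 a neighbor at 2.53 lay above *Stra6* at 1.09. Around *Dhrs3* the medians were -0.42, -0.11 and -0.29, against -3.57, -2.46 and -0.75 for the gene. The lowest neighbor of *Dhrs3* was at -1.61, -1.62 and -2.34, so in line 336 *Dhrs3* lay within the range of its neighbors. Around *Crabp2* the medians were 0.06, -0.03 and -0.29, with 1 or more neighbors as low as -4.08 in line 233 and -4.65 in line 336, against -4.03 and -2.56 for *Crabp2*. Copy number was not analysed here.

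**Figure D4:**
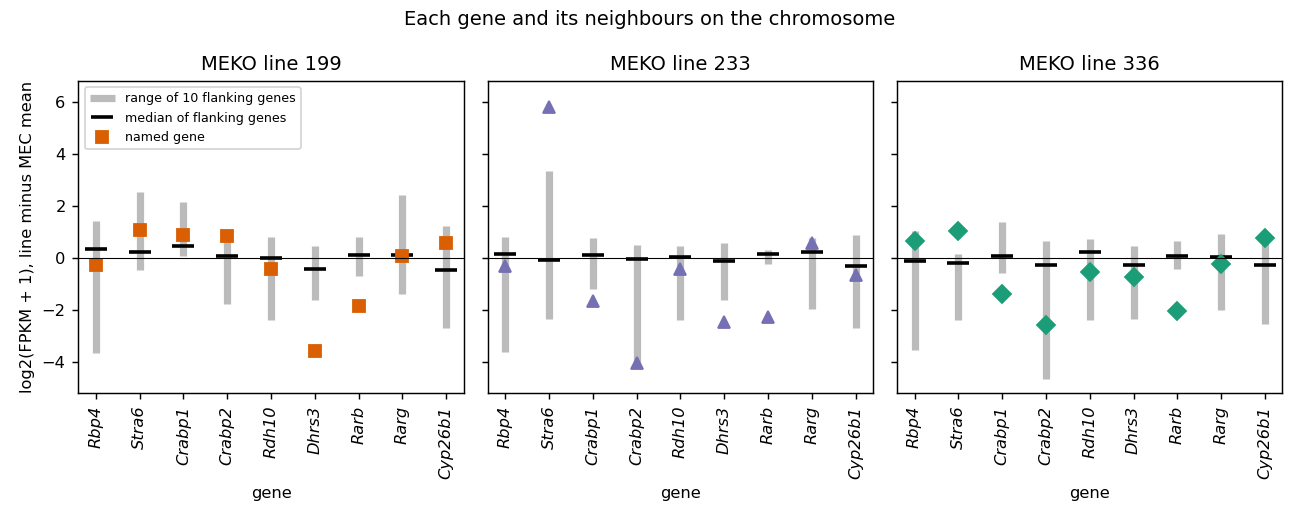
Difference of log2(FPKM + 1) from the MEC mean for each of the 9 genes (symbols) in MEKO lines 199, 233 and 336, beside the range (gray bars) and median (black dashes) of the 10 nearest tested genes on the chromosome. *Rarb* lies below all of its neighbors in each line, and *Stra6* at 5.80 lies above all of its neighbors in line 233.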

How the data were processed

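RNA-seq libraries of 3 MEC preparations and 3 MEKO lines were analysed, grouped by sample title. The authors trimmed paired-end reads, aligned them to mm10 (GRCm38) with Bowtie2 and TopHat2 2.0.14, and quantified genes with Cufflinks 2.2.1. The deposited values are FPKM, normalized by the authors for length and library size, and 2 of 37755 entries held none. Read numbers are unknown, so no detection limit was computed, and low genes are the least precise.

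Entries were matched by symbol, taking the highest mean. Limma 3.58.1 in R 4.3.3 was fitted to log2(FPKM + 1) with a mean-variance trend over entries with a mean of at least 1 FPKM, adjusted by Benjamini-Hochberg, and tested on simulated data. Count tools were not used. Positions were from GENCODE M21 on GRCm38, promoters from RefSeq on GRCm38.p6, with windows for 7 of the 9 genes. The 9 genes and all lists were chosen with earlier results of these data known. The text names the 9 genes, the targeted genes, called list genes, the most abundant of each list, marker genes, and the closest patterns to *Crabp2*. Some list genes are not reported here by name. Other names were chosen after their values were seen, namely *Top2b*, *Rdh5*, *Bloc1s1*, *Lrat*, *Ttr*, *Aldh1a2*, *Rara*, *Rxra*, *Rxrb* and *Tgm2*. Alternatives were a pseudocount of 0.1, other filters and scalings, no trend, sample weights, the ratio of means and each library left out.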

Additional observations from a re-analysis of the deposited data

How the results depend on the processing

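Over the 8 tested genes and 9 called list genes, 200 of 234 refits kept direction and side of the threshold, 26 lost the call, 6 gained it and 2 turned direction. Those 2 were *Rarg*, at -0.071 without line 233 and between that and 0.34 with each library left out, and *Cyp26b1*, at -0.033 without line 336 and up to 0.67. *Rarb* lay between -4.25 (log2 ratio of means) and -1.61 (quantile normalization). *Aldh1a3* and *Nrip1* were called under all 14 alternatives, while *Aldh1a1*, *Dhrs4*, *Tgif1*, *Rai14* and *Meis2* lost the call without any 1 MEC library, and *Meis2* under 6 of 13 alternatives. With sample weights 1 of the 8 genes was called higher and 3 lower, 2 and 5 pathway genes, 5 response genes higher, and 600 and 1378 of all genes. With a filter at a mean of 5 FPKM, 0 of the genes were called lower, because *Rarb* was not tested, and 501 of all genes were. Leaving out 1 library at a time gave 0 (without MEC 1) to 3 (without line 199) of the genes called lower, 0 to 1 pathway genes called higher, 0 to 5 response genes called higher and 0 to 2 lower, and, over all genes, 48 to 568 higher and 211 to 1398 lower, where both counts over all genes were lowest without MEC 1 and highest without line 199. The cause was not tested. No paired analysis was possible because the MEC and MEKO replicate numbers are not shared.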

Other observations

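MEC 3 was also over 1.5 times both other MEC libraries for 4 of 26 tested pathway genes and 2 of 12 tested response genes. The share over all tested genes was 8.69%. Genes named here were chosen after their values were seen. MEC 3 was 2.88 times the higher of the others for *Dgat1*, an acyltransferase gene, 1.54 times for *Rxra* and 1.57 times for *Tgm2*. Other response genes went the other way, among them *Foxa1* at 8.62 FPKM and *Meis2* at 0.622 FPKM, which were lowest in MEC 3 among the MEC libraries. *Cyp26a1*, an enzyme gene for the breakdown of retinoic acid and a known early target of its receptors, was at 0.929 FPKM in MEC 3, at 0.0527 and 0.0522 FPKM in MEC 1 and 2, at 0.0137 FPKM in line 199, and is listed at 0 in lines 233 and 336. Its mean was under the level for testing. *Aldh1a3*, at 72.8 FPKM, was lowest in MEC 3 among the MEC libraries.

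*Adh7*, an alcohol dehydrogenase gene with activity on retinol, was seen mainly in 1 line and was also named after its values were seen. It was at 3.12 FPKM in line 199 and at or under 0.0726 FPKM in every other library.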
